A study of Mus musculus with 12 samples.

Results

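The genes described here are 10 components of the hypoxia-inducible factor (HIF) pathway in sorted nephron progenitors of the fetal mouse kidney. They comprise the factor subunits Hif1a and Epas1, the oxygen-sensing and degradation genes Vhl, Egln1 and Egln3, and the targets Vegfa, Bnip3, Adm, Ankrd37 and Car9. They were taken as the rows of the count table that carry these symbols, 10 of 49164 genes with counts. Of the 10, 9 passed the filter on low counts that left 17697 genes for testing. Car9 did not pass, with 1 to 8 counts per library, and is given by its counts only.

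The series asked how maternal ketosis affects the fetal kidney and sequenced RNA from 12 litters, 1 library per litter and 4 litters in each of 3 arms. Dams were wild-type outbred CD1 females of 8 to 10 weeks, mated with CD1 males of the same age that carried the Tg(Six2-EGFP/cre) transgene, so the embryos whose cells were sorted were heterozygous for it in all 3 arms. This transgene is driven by Six2, the gene that keeps cap mesenchyme in its self-renewing state, and it marks nephron progenitors with GFP. The 3 regimens were given from conception to E17.5 (late gestation): a control diet, the same diet with added β-hydroxybutyrate (the main circulating ketone body), or a ketogenic diet. Kidneys of all embryos of a litter, of both sexes, were digested together, and RNA from 50000 to 100000 GFP-positive cells was used. The housing notes also mention calorie restriction, which no label assigns to any of the 12 libraries. Normal, K and BHB denote the arms as titled. For both treated arms the titles and the treatment fields contradict each other, since K, the ketogenic set by title, lists supplementation as its treatment and BHB, the supplemented set by title, lists the ketogenic diet. K and BHB therefore name sets of libraries, not diets. Pooling the treated arms, or testing the 3 arms jointly, avoids this uncertainty.

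HIF is a transcription factor made of an oxygen-regulated alpha subunit, encoded by Hif1a or Epas1, and a constant partner encoded by Arnt. When oxygen is present, prolyl hydroxylases encoded by the Egln genes mark the alpha subunit, and the ubiquitin ligase that contains the Vhl protein then sends it for degradation. When oxygen is short the alpha subunit persists, binds DNA at a short core motif and raises genes of glucose use, vessel growth and mitochondrial turnover, so that HIF activity is set largely at the protein level and the RNA of its targets is the usual readout. In the developing kidney the nephrogenic zone is poorly perfused, and podocyte precursors secrete VEGF to attract endothelial cells.

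The core motif, ACGTG or GCGTG, was looked up on both strands in the 250 bases before the annotated start of the members. RefSeq's promoter table (build GRCm38.p6) held 9 of the 10 members in 10 windows, with a pair of starts for Vegfa; Epas1 had no entry. The motif stood in 8 of the 10 windows, and in 12679 of 32851 windows of all genes (38.6%). ACGTG alone stood in 7 member windows and in 16.6% of all windows. The windows of the 5 genes that are induced targets and had the larger differences below are printed so that the motifs can be seen beside the values. Capitals mark each match, CACGT and CACGC being matches on the opposite strand. Bnip3 lies at chr7:138909507-138909756 (minus strand), Ankrd37 at chr8:45999851-46000100 (minus), Adm at chr7:110627407-110627656 (plus), Egln3 at chr12:54203875-54204124 (minus) and the first Vegfa start at chr17:46032378-46032627 (minus).
Bnip3: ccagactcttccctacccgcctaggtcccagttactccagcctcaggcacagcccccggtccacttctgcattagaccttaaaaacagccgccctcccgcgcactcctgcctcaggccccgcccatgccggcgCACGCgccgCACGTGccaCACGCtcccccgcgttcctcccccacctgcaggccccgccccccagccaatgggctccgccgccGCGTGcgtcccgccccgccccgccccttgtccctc
Ankrd37: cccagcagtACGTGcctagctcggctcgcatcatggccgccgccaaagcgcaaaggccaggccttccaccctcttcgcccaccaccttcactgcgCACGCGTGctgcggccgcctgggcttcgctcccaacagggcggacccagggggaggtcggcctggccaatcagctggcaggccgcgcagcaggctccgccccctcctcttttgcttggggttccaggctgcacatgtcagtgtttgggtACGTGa
Adm: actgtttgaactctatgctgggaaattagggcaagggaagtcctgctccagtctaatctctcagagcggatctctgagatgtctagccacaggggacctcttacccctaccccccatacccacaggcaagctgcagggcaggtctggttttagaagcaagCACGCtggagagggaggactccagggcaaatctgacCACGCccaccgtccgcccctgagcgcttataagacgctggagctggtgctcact
Egln3: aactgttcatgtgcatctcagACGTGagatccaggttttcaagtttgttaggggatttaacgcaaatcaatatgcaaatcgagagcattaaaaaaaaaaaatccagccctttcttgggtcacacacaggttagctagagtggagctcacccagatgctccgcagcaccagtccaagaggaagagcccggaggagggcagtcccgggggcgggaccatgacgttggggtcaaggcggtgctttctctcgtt
Vegfa: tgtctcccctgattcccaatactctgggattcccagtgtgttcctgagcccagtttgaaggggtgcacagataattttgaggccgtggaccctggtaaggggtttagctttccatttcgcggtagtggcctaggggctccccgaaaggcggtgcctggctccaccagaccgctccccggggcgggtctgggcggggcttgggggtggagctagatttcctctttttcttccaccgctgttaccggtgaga
Bnip3 held 5 matches, among them CACGTG, which reads as ACGTG on either strand, at 108 to 103 bases before the start. Ankrd37 held 4, of which the nearest ACGTG ended 2 bases before the start. Adm held 2 GCGTG on the opposite strand and Egln3 held 1 ACGTG at 229 to 225 bases before the start. The first Vegfa window held no match and the window of the second annotated start held 2. This second window, at chr17:46025164-46025413 (minus), lies downstream of the first start. It counts among the 8 windows with the motif and the 7 with ACGTG. Of the members not printed, Hif1a had 3 matches, Egln1 had 2, Car9 had 1 and Vhl had 0. A match here is a string of letters, and no binding was measured.

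The libraries held 7532784 to 12276119 counts, and the arms did not differ in total count (two-sided exact permutation p = 0.771 for K and 1 for BHB against normal). Six2 was at 228 to 510 CPM (the count relative to library size, after TMM, edgeR's correction for composition) and Eya1 at 302 to 644, so all libraries carried the defining transcripts of nephron progenitors. Markers of other kidney, vessel and blood cells were also present, and more so in treated libraries. A score for these other cells, the mean log2 CPM over 6 marker lists (endothelium, podocyte, proximal tubule, distal tubule, ureteric epithelium and leukocyte), was 4.36 ± 1.00 in K and 4.14 ± 0.64 in BHB against 2.97 ± 0.44 in normal (SD, n = 4). The normal litters scored 2.37 to 3.43, and the highest scores belonged to K 3 (5.25) and K 4 (5.18), followed by BHB 1 (4.94) and BHB 2 (4.35). Against normal, the two-sided exact permutation test gave p = 0.0571 for K (0.236 after adjustment over 33 tests of depth and markers) and p = 0.029 for BHB (0.157). These 4 libraries stand apart, and results are therefore also given without them.

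Per length of exon, the members covered a wide span of levels in the normal litters. Vegfa, the secreted growth factor for endothelial cells, was highest at 60.9 ± 6.60 CPM per kb, followed by Hif1a at 34.7 ± 2.23, Egln1 at 25.8 ± 2.21, Bnip3 at 13.5 ± 4.28 and Vhl at 7.97 ± 0.86 (SD, n = 4). Ankrd37 followed at 4.098 ± 1.00, Adm at 1.87 ± 0.17, Epas1 at 1.45 ± 0.41, Egln3 at 0.657 ± 0.132 and Car9 at 0.157 ± 0.108 CPM per kb. The ranges of neighbours in this order did not overlap except for Adm and Epas1. In K, Bnip3 was at 27.4 ± 5.47 CPM per kb and stood above Egln1 at 27.0 ± 3.02, although their ranges overlapped. There the ranges also overlapped between Hif1a and Bnip3 and between each pair of neighbours from Vhl down to Egln3. In BHB the same held from Vhl down to Egln3, and for Hif1a with Egln1 and Egln1 with Bnip3.

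The alpha subunits differed in their pattern across litters. Hif1a was at 204, 219, 207 and 187 CPM in normal 1 to 4, at 201, 205, 186 and 179 in K 1 to 4 and at 182, 188, 180.4 and 156 in BHB 1 to 4. The arms overlapped and the whole span was less than 1.5-fold. Epas1, which encodes HIF-2α and is known for high levels in endothelium, was at 10.0, 5.30, 9.98 and 7.04 CPM in normal, at 17.6, 15.6, 51.4 and 41.8 in K and at 77.4, 26.6, 18.1 and 7.12 in BHB. All 4 K litters lay above all normal ones, while the BHB litters ranged from the normal level to the highest value of all. By arm Epas1 averaged 8.08 ± 2.32, 31.6 ± 17.8 and 32.3 ± 31.1 CPM (SD, n = 4), and its highest values stood in the same 4 libraries that had the highest marker score.

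Among the genes of oxygen sensing, Egln3 varied most. Egln3 encodes PHD3, a prolyl hydroxylase that is itself a HIF target. Its level was 1.51, 1.57, 1.65 and 2.27 CPM in normal, 3.83, 4.41, 16.4 and 10.1 in K and 27.5, 5.86, 2.44 and 1.53 in BHB. Every K litter was above every normal litter, and BHB 4 was within the normal range. Egln1 encodes PHD2, the main oxygen sensor, and was steady at 91.2, 95.04, 83.1 and 102 CPM in normal, 88.8, 96.2, 113 and 90.4 in K and 102, 98.0, 106 and 85.0 in BHB. Its 3 arms overlapped throughout. Vhl, the substrate-binding part of the ubiquitin ligase, was at 25.3, 26.5, 20.6 and 23.2 CPM in normal, 19.4, 23.2, 21.03 and 20.4 in K and 20.3, 19.5, 20.5 and 16.6 in BHB. All 4 BHB litters were below the lowest normal litter, BHB 3 and normal 3 being nearly equal, and the K litters overlapped with normal.

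Of the targets, Bnip3 and Vegfa were at high levels, and their K litters did not overlap with the normal ones. Bnip3, a mitochondrial receptor for mitophagy, was at 22.4, 27.9, 27.5 and 44.6 CPM in normal, 51.3, 53.5, 78.1 and 65.6 in K and 62.8, 43.8, 32.5 and 33.0 in BHB. The lowest K litter was above the highest normal litter, normal 4, and the BHB litters overlapped with both arms. Vegfa was at 246, 252, 242 and 303 CPM in normal, 314, 353, 391 and 394 in K and 411, 337, 295 and 238 in BHB. The K litters again lay above all normal litters, by a small margin from normal 4, whereas BHB 4 was the lowest library of all.

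Adm encodes adrenomedullin, a peptide that widens vessels, and was at 3.21, 3.24, 3.04 and 2.63 CPM in normal, 5.94, 3.45, 9.66 and 12.1 in K and 14.8, 5.46, 2.77 and 1.27 in BHB. The normal litters were close to each other, K 2 was just above them, and BHB spread to both sides. Ankrd37, an ankyrin repeat protein used as a HIF target marker, was at 5.85, 5.49, 5.29 and 8.59 CPM in normal, 9.17, 10.7, 12.4 and 8.35 in K and 12.5, 10.9, 6.34 and 6.61 in BHB. K 4 lay below normal 4, so the arms overlapped. Ankrd37 overlaps Ufsp2 on the opposite strand, which had 212 to 359 counts per library, and since the sources used here do not give the strand setting, reads of both genes could not be told apart. Car9, a membrane carbonic anhydrase that is nearly silent without HIF activity, had 15 counts over the 4 normal litters, 19 over K and 14 over BHB, and at this depth no difference was detectable. It overlaps Gm12454 on the opposite strand, which had 46 to 117 counts per library.

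**Figure D1:**
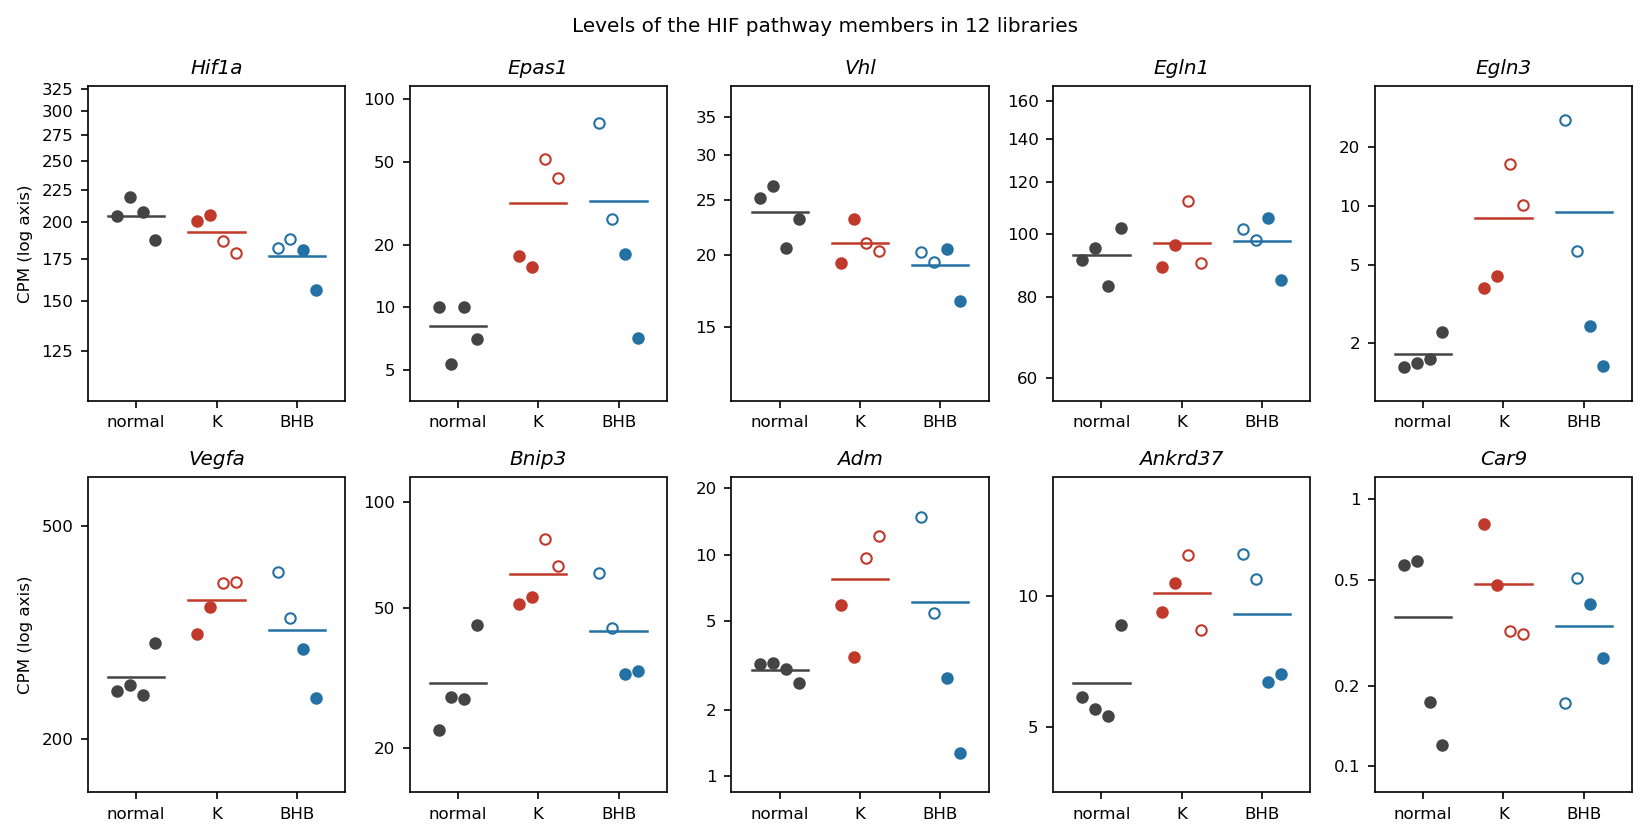
Level of each member in the 12 libraries, as TMM-scaled CPM on a log axis, with 1 point per litter in replicate order and a line at the arm mean (n = 4); open circles are K 3, K 4, BHB 1 and BHB 2. In K all 4 points lie above the normal points for Epas1, Egln3, Vegfa, Bnip3 and Adm. For these genes BHB reaches from the normal range, or below it for Vegfa and Adm, to values above all normal points. Epas1 in BHB spans 7.12 to 77.4 CPM.

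The first comparison set the K litters against the normal litters. The hypoxia targets and Epas1 were higher in K, with Bnip3 at 62.1 ± 12.4 against 30.6 ± 9.70 CPM and Vegfa at 363 ± 37.4 against 261 ± 28.3 (SD, n = 4), and Hif1a, Egln1 and Vhl were close to normal. The log2 difference was 2.31 ± 0.87 for Egln3, 1.96 ± 0.66 for Epas1, 1.35 ± 0.62 for Adm, 1.03 ± 0.26 for Bnip3, 0.69 ± 0.25 for Ankrd37 and 0.48 ± 0.15 for Vegfa (SE). Each of these 6 was above the normal mean in 4 of 4 K litters. None of the 9 tested members passed edgeR's quasi-likelihood test on all 12 libraries after Benjamini-Hochberg adjustment over all genes (adjusted p from 0.221 for Bnip3 to 0.731 for Egln1), and 0 of 17697 genes did (0%). Without adjustment 5 members, Epas1, Egln3, Vegfa, Bnip3 and Ankrd37, were higher at p under 0.05, where 12.1% of all genes were, and 0 were lower, where 7.68% were. The arms did not overlap for 5 members, all higher in K, against 4.87% of all genes that were higher and 5.26% that were lower without overlap. For these 5 genes the two-sided exact permutation p was 0.029, the smallest that 4 against 4 litters can give, and 0.282 after adjustment over all genes. The median log2 difference of the members was 0.69, and that of all tested genes was 0.005.

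The calls differed between fits. With the replicate number as a block in all 12 libraries no gene passed, and Bnip3, Egln3, Vegfa and Epas1 each had an adjusted p of 0.323 by edgeR's test. In a fit of the 8 K and normal libraries alone with the same block, which was added after seeing the data, 391 of 16746 genes passed (2.33%), 4 members among them. These were Bnip3 (log2 difference 1.05 ± 0.15, adjusted p = 0.0385), Egln3 (2.15 ± 0.35, adjusted p = 0.0414), Vegfa (0.48 ± 0.08, adjusted p = 0.0414) and Epas1 (1.84 ± 0.30, adjusted p = 0.0422) by the same edgeR test. DESeq2 called 296 genes (1.67%) and 1 member, Bnip3 (adjusted p = 0.0206).

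BHB was compared with the same normal litters. Differences of similar size were fitted for Egln3, with a log2 difference of 2.43 ± 0.87, and Epas1, with 2.00 ± 0.66, but 3 of 4 BHB litters, not 4, were above the normal mean for each. These depended more on single libraries than in K. With 1 library left out, Egln3 ranged from 0.92 to 2.77 in BHB and from 1.81 to 2.56 in K. Epas1 ranged from 1.10 to 2.33 in BHB and from 1.63 to 2.18 in K. Bnip3 was at 43.0 ± 14.2 CPM in BHB, a log2 difference of 0.50 ± 0.26, Vegfa at 321 ± 72.9 CPM, a difference of 0.30 ± 0.15, and Adm at 6.08 ± 6.08 CPM, with 2 of 4 litters above the normal mean. Vhl averaged 19.2 ± 1.77 CPM against 23.9 ± 2.57 in normal (log2 difference -0.31 ± 0.11), and Hif1a 177 ± 14.0 against 204 ± 13.2 (-0.21 ± 0.08), with 0 of 4 BHB litters above the normal mean for either. By edgeR's quasi-likelihood test no member was called (adjusted p from 0.417 to 0.723), nor was any other gene (0%); DESeq2 called 73 genes (0.412%) and no member. Without adjustment Epas1 and Egln3 were higher at p under 0.05, against 6.79% of all genes, and Hif1a and Vhl were lower, against 5.02%. Vhl was the 1 member whose arms did not overlap, where 4.67% of genes were lower and 3.95% higher without overlap (two-sided exact permutation p = 0.029, 0.331 after adjustment over all genes). The count of members without overlap changed with single litters: it was 4 without normal 4, 3 without BHB 4 and 2 without BHB 2. Arms of fewer litters separate more easily for any gene, and the share of all genes is not given for these smaller sets.

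K and BHB did not differ detectably for any member. The nearest was Bnip3, higher in K by 0.53 ± 0.25 on the log2 scale (95% interval -0.03 to 1.08, adjusted p = 0.624 by edgeR's quasi-likelihood test), with 4 of 4 K litters above the BHB mean. For Epas1 the interval ran from -1.41 to 1.33 and for Egln3 from -1.83 to 1.60, so differences of more than 2-fold in either direction are within them. For Hif1a it ran from -0.04 to 0.29 and for Egln1 from -0.22 to 0.20. The adjusted p of the 9 members was 0.624 to 0.994, and 0% of all genes passed. No member was called without adjustment either (p under 0.05), where 3.72% of all genes were higher and 4.51% lower, or by DESeq2, which called 23 genes (0.13%). No member's arms were without overlap, against 1.76% of genes that were higher and 2.31% lower.

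Both treated arms together, the contrast that does not depend on the diet labels, gave Epas1 at 1.98 ± 0.61, Egln3 at 2.37 ± 0.81, Bnip3 at 0.76 ± 0.23, Ankrd37 at 0.61 ± 0.22 and Vegfa at 0.39 ± 0.13 (log2 difference from normal ± SE). Bnip3 and Ankrd37 were above the normal mean in 8 of 8 treated litters, and Epas1, Egln3 and Vegfa in 7 of 8. Vhl was at -0.25 ± 0.09 with 0 of 8 treated litters above the normal mean, and Hif1a at -0.15 ± 0.07 with 1 of 8. Adjusted p ranged from 0.252 to 0.658 (edgeR's quasi-likelihood test), so 0 members were called, as were 0% of genes. Without adjustment 5 members were higher at p under 0.05, against 11% of all genes, and 2 were lower, against 7.84%. No member was without overlap between the 8 treated and the 4 normal litters (1.03% of genes were higher and 0.831% lower without overlap). DESeq2 called 226 genes (1.28%), with Egln3 (adjusted p = 0.0315) and Epas1 (adjusted p = 0.049) among them. A joint test of the 3 arms gave adjusted p-values of 0.351 to 0.836 for the members and called 0% of genes, with 6 members at an unadjusted p under 0.05, against 14.2% of all genes. By DESeq2 it called 100 genes and no member.

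**Figure D2:**
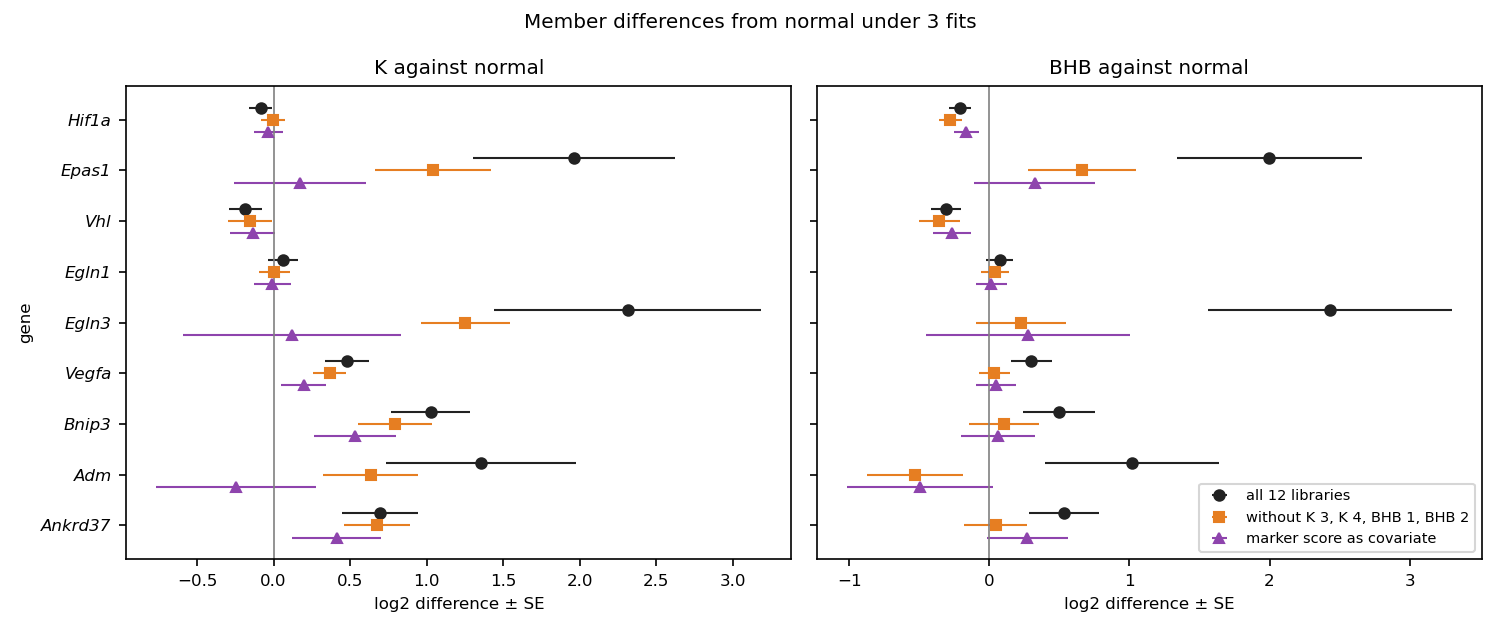
Log2 difference from normal (x axis, ± SE) of the 9 tested members in K and in BHB, for the fit of all 12 libraries (circles), the fit without K 3, K 4, BHB 1 and BHB 2 (squares) and the fit with the marker score of other cells as a covariate (triangles). Epas1 in K goes from 1.96 over 1.04 to 0.17 across the 3 fits, Bnip3 from 1.03 over 0.79 to 0.53.

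Epas1, Egln3 and Adm were highest in K 3, K 4 and BHB 1, the libraries with the highest marker scores. The marker lists did not all rank the libraries alike. BHB 4 had the highest leukocyte sum, at 172 CPM, and the lowest Vegfa and Adm, at 238 and 1.27 CPM. Its podocyte and ureteric sums, 484 and 132 CPM, were the lowest of all libraries. Its endothelial and distal sums, 30.9 and 267 CPM, were within the normal range, and its proximal sum, 1658 CPM, was above it. Hif1a and Vhl averaged slightly below normal in both treated arms, in K with unadjusted p = 0.288 and 0.109 (edgeR's quasi-likelihood test). The summed level of the 10 endothelial markers was 22.2 to 40.9 CPM in the normal litters, 62.9 to 225 in K and 30.9 to 334 in BHB, with 10 of 10 markers above their normal mean in each treated arm and none at 0 in any library. Kdr, the VEGF receptor of endothelial cells, averaged 31.8 ± 19.99 CPM in K and 27.5 ± 34.0 in BHB against 3.55 ± 2.37 in normal (SD, n = 4). The 10 podocyte markers summed to 492 to 635, 660 to 1024 and 484 to 1506 CPM, with 8 of 10 above the normal mean in each treated arm. Proximal tubule markers summed to 166 to 1478 CPM in normal, 418 to 3626 in K and 721 to 1658 in BHB, and distal tubule markers to 204 to 722, 355 to 3517 and 267 to 1937. For both tubule lists 10 of 10 markers were above the normal mean in both treated arms. Ureteric markers summed to 162 to 248, 187 to 721 and 132 to 764 CPM and leukocyte markers to 26.2 to 41.0, 42.4 to 73.1 and 50.1 to 172. At 0 were Upk3a, a ureteric marker, in 3 libraries and the leukocyte marker Tyrobp in 1. Progenitor markers summed to 2336 to 2540.2 CPM in normal, 1382 to 2436 in K and 1577 to 2443 in BHB, with 1 of 9 above the normal mean in each treated arm. Stromal markers summed to 144 to 181, 185 to 221 and 158 to 489 CPM, with 6 and 8 of 10 above normal. In such bulk samples a different share of cells of a type and a different amount of RNA per cell cannot be told apart. The part of these other cells in the member differences was not tested.

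Without K 3, K 4, BHB 1 and BHB 2 the differences of K from normal were 1.25 ± 0.29 for Egln3, 1.04 ± 0.38 for Epas1, 0.79 ± 0.24 for Bnip3, 0.68 ± 0.22 for Ankrd37, 0.63 ± 0.31 for Adm and 0.37 ± 0.11 for Vegfa (log2 ± SE). The 2 remaining K litters still had endothelial marker sums of 80.9 and 62.9 CPM, above all normal ones. In BHB the same fit gave 0.66 ± 0.38 for Epas1, 0.23 ± 0.32 for Egln3, 0.11 ± 0.25 for Bnip3, 0.04 ± 0.11 for Vegfa and -0.53 ± 0.34 for Adm, whereas Vhl stayed at -0.36 ± 0.14 and Hif1a at -0.28 ± 0.08. With the marker score as a covariate in all 12 libraries, K differed from normal by 0.53 ± 0.27 in Bnip3, 0.41 ± 0.29 in Ankrd37, 0.20 ± 0.15 in Vegfa, 0.17 ± 0.43 in Epas1, 0.12 ± 0.71 in Egln3 and -0.24 ± 0.52 in Adm. No member passed edgeR's quasi-likelihood test in either fit. Without the 4 libraries 0.0662% of all genes passed in K and 0.0276% in BHB, and with the covariate 0.00565% and 0%.

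**Figure D3:**
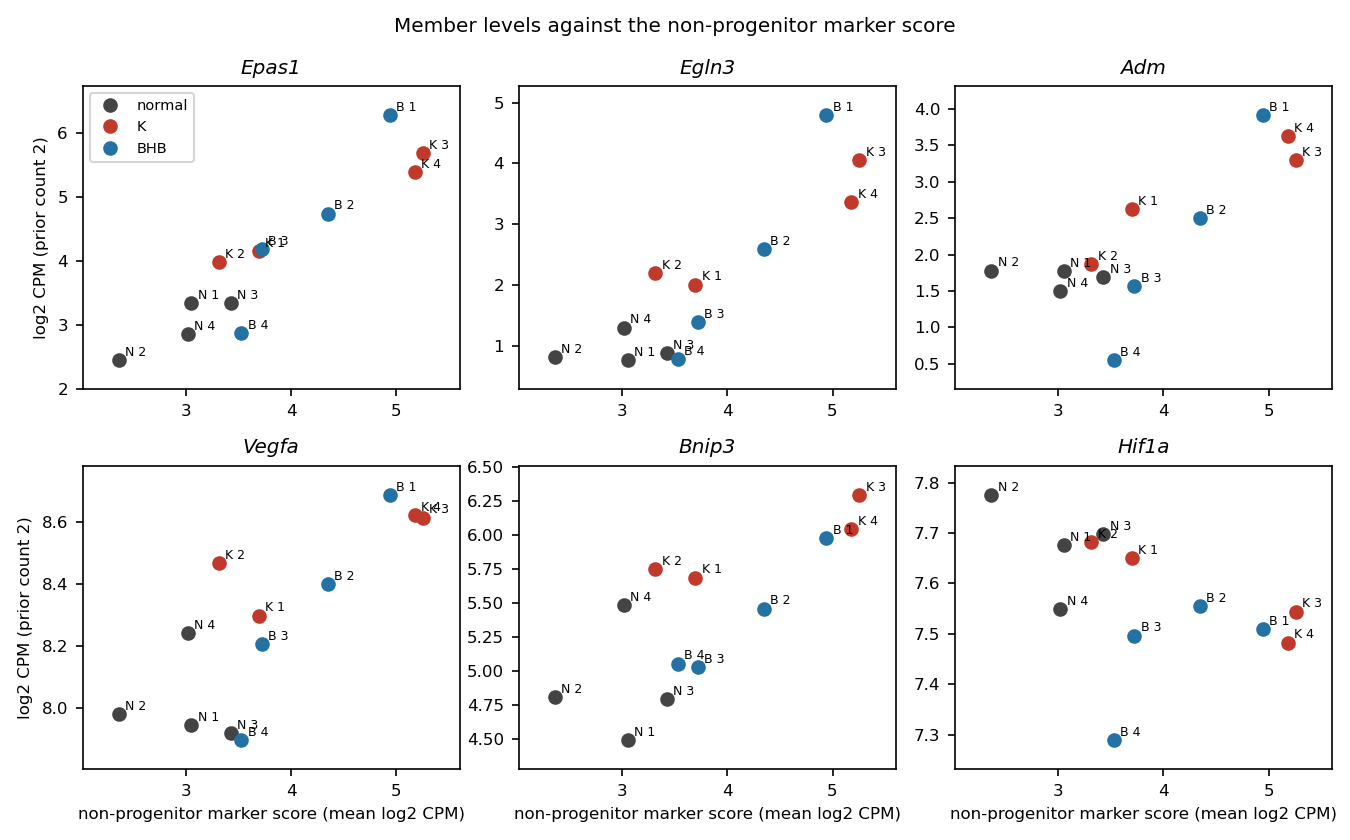
Log2 CPM (prior count 2) of 6 members against the mean log2 CPM of the marker lists of other cells, with 1 point per library labelled N, K or B and its number. Epas1, Egln3 and Adm are highest in K 3, K 4 and BHB 1, whose scores are 5.25, 5.18 and 4.94. Bnip3 in K 1 and K 2 lies above the normal libraries. The scores of K 1 and K 2 are 3.70 and 3.32, and the highest normal score is 3.43.

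The rest of the pathway was described with a list of 52 other genes, 50 of which were tested; Epo and Ndufa4l2 had too few counts. In K 40 of the 50 were above normal and 10 below, where 50.6% of all genes were above, with a median log2 difference of 0.23 and 0 called by edgeR. In BHB 36 were above and 14 below, where 52.8% of all genes were above, with a median of 0.16 and 0 called by edgeR. DESeq2 called 5 of them in K, namely Hif3a, Flt1, Angptl4, Stc2 and Plod1, where it called 1.67% of all genes. In BHB it called 1, Hmox1, where it called 0.412% of all genes. In the pooled contrast it called 4, Hif3a, Flt1, Angptl4 and Plod1, where it called 1.28% of all genes. All of these were higher than normal. Arms did not overlap for 9 genes in K, all higher, and in BHB for 4 that were higher and 3 that were lower; of all genes 4.87% were higher and 5.26% lower without overlap in K, and 3.95% and 4.67% in BHB. Without the 4 libraries that stand apart the median was 0.14 in K and 0.0062 in BHB, and with the marker score as a covariate 0.08 and 0.0020.

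Of the glucose genes, the largest group of the list, 13 of 14 were above normal in K, with a median of 0.42. Slc2a1, the glucose transporter GLUT1, averaged 165 ± 34.97 CPM in K, 148 ± 59.0 in BHB and 95.3 ± 6.78 in normal (SD, n = 4), and the glycolytic enzyme Pgk1 259 ± 33.9, 215 ± 37.2 and 197 ± 18.4. Both were named after their values were seen. In the fit of all 12 libraries neither gene passed edgeR's quasi-likelihood test. Slc2a1 passed this test in K without the 4 libraries that stand apart (log2 difference 0.52 ± 0.07, adjusted p = 0.019). There 0.0662% of all genes passed. It also passed in the paired fit, which was added after seeing the data (0.78 ± 0.13, adjusted p = 0.0421). There 2.33% of all genes passed. The hexokinase Hk2 averaged 124 ± 43.3 CPM in K, next to 125 ± 14.4 in normal.

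Secreted and receptor targets had the largest differences, with 5 of 5 above normal in both treated arms and medians of 1.04 in K and 1.00 in BHB. Flt1, a VEGF receptor of endothelial cells, averaged 19.5 ± 12.4 CPM in K and 15.7 ± 18.1 in BHB against 2.35 ± 1.26 in normal, with log2 differences of 3.03 ± 0.90 and 2.73 ± 0.89. Angptl4 is a secreted inhibitor of lipoprotein lipase and also a PPAR target. It averaged 19.7 ± 14.2 CPM in K and 9.15 ± 3.80 in BHB against 4.59 ± 0.99 in normal. The log2 differences were 2.096 ± 0.51 in K and 1.00 ± 0.51 in BHB. Edn1, which encodes the vessel-narrowing peptide endothelin-1, was at 2.69 ± 2.81 CPM in BHB against 1.05 ± 0.64 in normal (1.41 ± 0.83). None of the 3 passed in the fit of all 12 libraries (adjusted p = 0.221 to 0.492 in K and 0.417 to 0.465 in BHB, edgeR's quasi-likelihood test). In the paired fit of K and normal 391 of 16746 genes passed (2.33%). This fit was added after seeing the data, and nothing in the labels says that the numbers mark pairs. Of the list 7 genes passed there, namely Hif3a, Slc2a1, Flt1, Angptl4, Plod1, Ndrg1 and Ero1a.

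Of the remaining groups, the oxygen-sensing machinery was flat or slightly lower, with 5 of 6 genes below normal in K and 6 of 6 in BHB and a median of -0.10 in each. Elob and Cul2, subunits of the Vhl ubiquitin ligase, were at -0.18 ± 0.09 and -0.11 ± 0.08 in K, and Cul2 at -0.23 ± 0.08 and Rbx1, its RING subunit, at -0.20 ± 0.07 in BHB. Among the partners Arnt was level, at 114 ± 6.81 CPM in K and 104 ± 2.34 in BHB against 111 ± 3.64 in normal, while Hif3a, an alpha subunit of the same family, was at 114 ± 66.8 and 83.0 ± 39.1 against 44.3 ± 9.18. Both were named after their values were seen. Mitochondrial targets had 3 of 4 genes above normal in both treated arms with medians of 0.08, hydroxylases 4 of 6 in K and 5 of 6 in BHB with medians of 0.22 and 0.09, and the other targets 11 of 12 in K and 8 of 12 in BHB. In the last group Bhlhe40, a transcriptional repressor, was at 1.52 ± 0.59 in K, Hmox1, the heme oxygenase, at 2.04 ± 0.61 in BHB, and Cited2, an inhibitor of HIF, at -0.21 ± 0.10 in BHB, while Ddit4, an inhibitor of mTORC1 signalling, was at -0.15 ± 0.13 in K.

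Set against each other, K exceeded BHB most in Angptl4 (log2 difference 1.10), Car12, a carbonic anhydrase (0.56), and Ak4, an adenylate kinase (0.47). It was lower in Hmox1 (-1.12), Cox4i2, a lung-type subunit of cytochrome oxidase (-0.81), and Slc2a3, the glucose transporter GLUT3 (-0.42). No gene was called in edgeR's quasi-likelihood test of all 12 libraries. Without K 3, K 4, BHB 1 and BHB 2 the same test called Kdm3a, of the hydroxylase group, higher in K (0.43 ± 0.08, adjusted p = 0.0449). There 36 of 18129 genes passed. In the pooled contrast the largest differences from normal were those of Flt1 (2.88), Angptl4 (1.55) and Hmox1 (1.48) above 0, and of Cul2 (-0.17), Elob (-0.16) and Rbx1 (-0.15) below it.

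**Figure D4:**
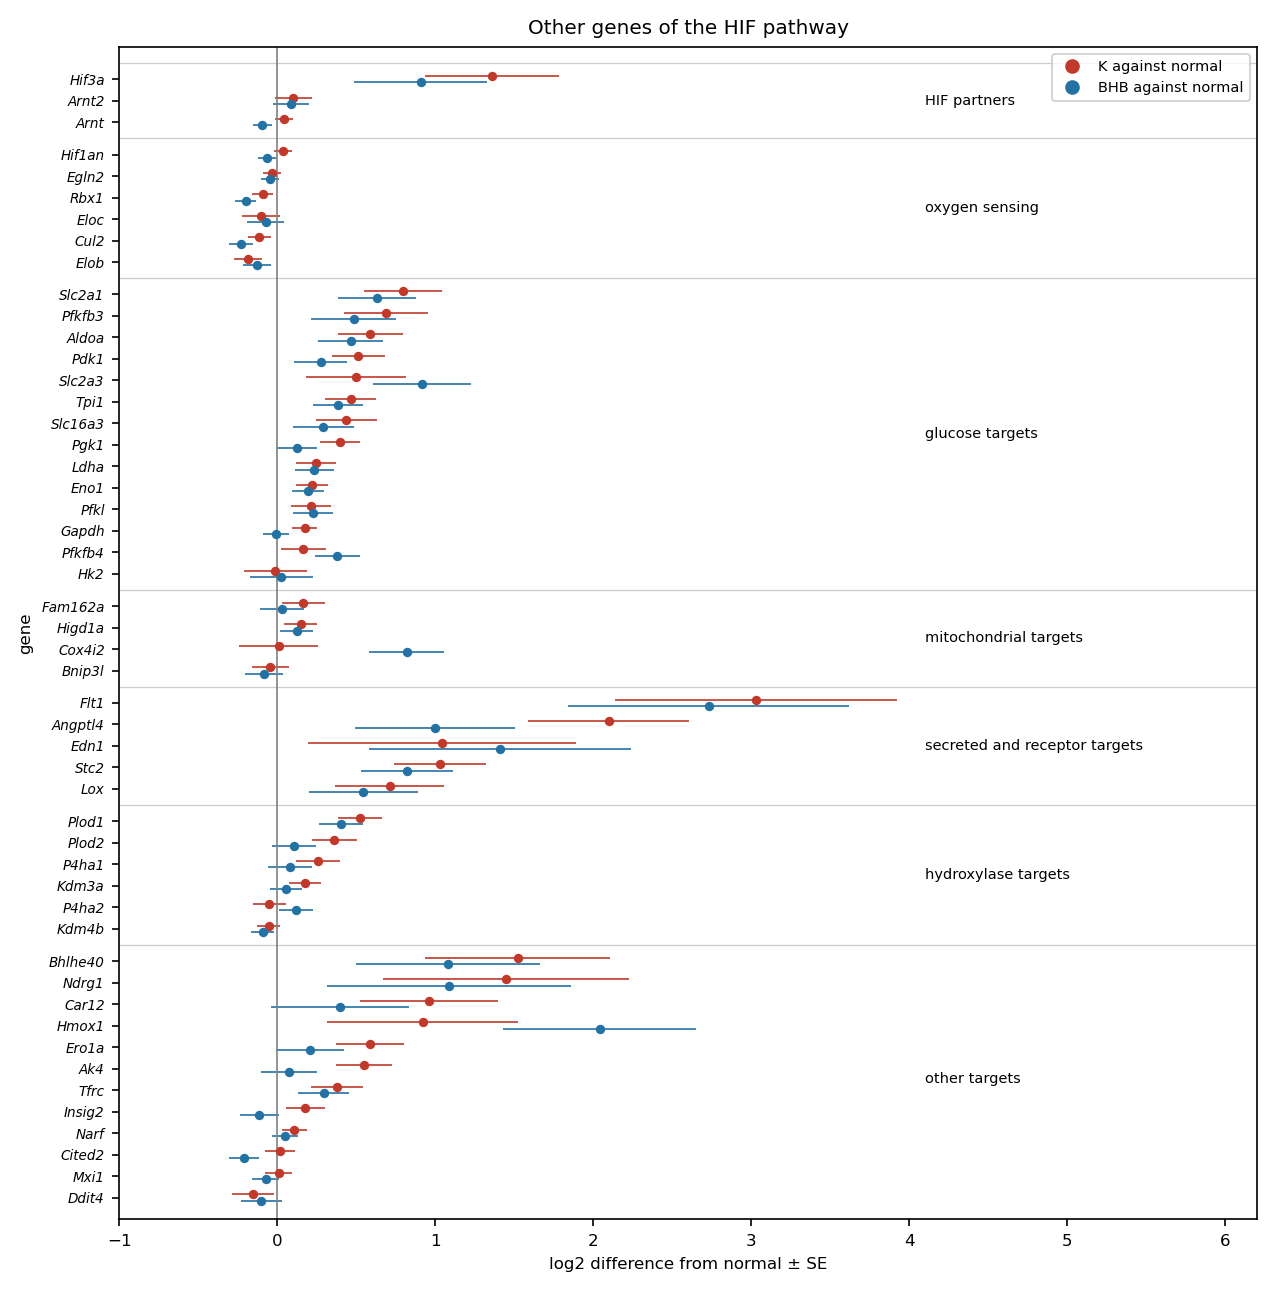
Log2 difference from normal (x axis, ± SE) of the 50 tested genes of the wider HIF pathway list, in K and in BHB, by group. Glucose genes lie mostly above 0 in both arms, with medians of 0.42 and 0.28, Flt1 lies farthest to the right at 3.03 in K, and the oxygen-sensing genes lie close to 0.

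Similarity of pattern was measured as the mean absolute difference in log2 CPM, each gene centred and scaled to unit SD over the 12 libraries, among 17697 genes. The 5 genes nearest to Bnip3 were Tec (0.225 SD), mt-Nd6, Pgk1, Ctps2 and Parm1, with Vegfa at rank 8 (0.309) and Ankrd37 at rank 20 (0.339). The nearest to Vegfa were Gja5 (0.213), Map3k13, the glycolytic enzymes Gpi1 and Aldoa, and Ehd3, with Egln3 at rank 21 and Bnip3 at rank 30. Adm was nearest to Tspan1 (0.193), Nr4a2, Emp1, Cavin1 and Arl4a, with Epas1 at rank 280 and Bnip3 at rank 2149. Hif1a was nearest to Megf9 (0.238), Zzz3, Norad, Tmem33 and Med13, with Vhl at rank 252 (0.510) and Adm, the nearest target, at rank 8904. The 12 libraries share the arms and the marker score, and no test was made on these distances.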

How the data were processed

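The deposited table holds raw counts per Ensembl gene and the authors' normalized signal for 12 libraries, single reads of 100 cycles from a stranded total RNA kit per the labels. The authors used TopHat2 2.1.1, HTSeq 2.01, DESeq2 1.36.0 and cutadapt 2.10, listed without roles in the submitters' processing notes. The sources used here do not give the genome build, annotation or strand setting. The signal that the authors deposited is the count over a size factor and entered no test. Of 55414 entries, 6250 had blank counts.

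Counts were filtered with edgeR 4.0.16 (filterByExpr, minimum count 10, minimum total 15) in R 4.3.3, TMM-scaled, and fitted with the robust quasi-likelihood test, 1 mean per arm, 9 residual degrees of freedom, Benjamini-Hochberg adjustment over all 17697 genes and a threshold of 0.05. Levels are TMM-scaled CPM, lengths are GENCODE mouse M21 exon unions, and log2 CPM used a prior count of 2. DESeq2 1.42.0, other scalings, no filter, each library left out, 4 libraries left out, a marker covariate and replicate blocks were tried. The fit was tested on simulated data. Members and lists were chosen with earlier results of these data known. All members were to be named, and of the wider list the 3 largest differences each way per comparison. A gene of the wider list and a progenitor marker are not reported here and entered no list count.

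Replicate numbers come from the titles, and nothing says that a number marks a shared day or litter. Deviations from the arm means correlated between same-numbered K and normal libraries at 0.114, 0.461, 0.338 and 0.238, each over 0.1, so they were also fitted as pairs. Some differently numbered libraries correlated more, K 1 with normal 2 at 0.464 and K 4 with normal 3 at 0.442. For BHB with normal the values were -0.01, -0.01, -0.26 and 0.10, and for K with BHB -0.44 to -0.22. No pair of libraries of the same arm agreed within sampling noise, and pairs from different arms were not examined for this. The number of counts limits low genes such as Car9, and p-values measure the spread between litters.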

Additional observations from a re-analysis of the deposited data

Results flagged for a closer look

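In a pair of cases 1 litter lay far from the other 3 of its arm. Egln3 was at 27.5 CPM in BHB 1 against 1.53 to 5.86 in the other BHB litters, a gap of 0.833 of the arm's range, which exceeds Dixon's 95% critical value for 4 samples. Ankrd37 was at 8.59 CPM in normal 4 against 5.29 to 5.85 in the other normal litters, a gap of 0.831. Among the 36 arms and genes examined, chance alone would flag about 1 in 20.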

How the results depend on the processing

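In edgeR's fit of all 12 libraries no gene passed in any comparison. DESeq2 called 296 genes in K against normal (1 member), 73 in BHB against normal, 23 in K against BHB, 226 in the pooled contrast (2 members) and 100 for any difference. Without a filter on low counts the calls were 2, 2, 0, 4 and 5 in the same order. Without K 3, K 4, BHB 1 and BHB 2 they were 12, 5, 36, 0 and 32, and with the marker covariate 1, 0, 1, 0 and 1, with no member among them. The replicate block called 391 genes and 4 members in the 8 K and normal libraries, and 0 in all comparisons of the 12-library fit, where it changed no other call. Size factors and upper-quartile scaling changed no call. Leaving out 1 library gave 0 to 4 calls for K against normal (4 without BHB 1, 1 without normal 4) and 0 to 1 for any difference (1 without normal 4). Members whose arms did not overlap ranged from 1 to 4 in BHB against normal and from 0 to 1 in K against BHB (1 without BHB 1). In the pooled contrast they ranged from 0 to 2 (2 without normal 4 or without BHB 4). The share of all genes without overlap is not given for these smaller sets. Directions turned for differences near 0 and for Adm, and the cause was not tested. In the fit of all 12 libraries Adm was at 1.35 in K, 1.02 in BHB and 1.19 pooled. With the covariate, Adm was at -0.24 in K, -0.49 in BHB and -0.37 pooled, and Egln1 at -0.0086 in K. Without the 4 libraries Adm was at -0.53 in BHB, and in K against BHB Epas1 was at 0.38 and Egln3 at 1.03. Under the 12-library block those were 0.18 and 0.32, and Egln1 was at 0.016 without a filter. With 1 library left out Egln1 ranged from -0.015 to 0.110 in K against normal and from -0.088 to 0.030 in K against BHB, Epas1 from -0.37 to 0.87 and Egln3 from -0.62 to 1.39 in K against BHB. The counts of Car9, Egln3 and Adm limit what could be detected for them, and simulated 2-fold differences were not all recovered at this sample size.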
